A study of Mus musculus with 12 samples.

Results

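Open chromatin in haematopoietic stem cells (HSCs) of mouse bone marrow fell inside exons of protein-coding genes, away from any transcription start, at 1926 of 70945 regions. These exonic regions were found from 12 lists of ATAC-seq summits, the points where reads of transposase-accessible DNA pile up. A summit was used if it scored 3 or more (the score is -log10 of the peak caller's q-value) and lay on chromosomes 1 to 19 or X. Each summit was widened by 250 bp in both directions, overlapping windows of any list were joined, and the summit of highest score gave a region its position. A region was kept if that position was more than 1 kb from every annotated transcript start and inside a coding sequence (CDS) or untranslated region (UTR) of a protein-coding gene.

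The 12 libraries came from 4 groups of 3: young mice of 3 months and aged mice of 18 months, each wild type (WT) or lacking Mlkl (Mlkl-/-), all C57BL/6. MLKL is a pseudokinase best known for breaching the plasma membrane in necroptosis, and the comparison asked how age and its loss change the chromatin of HSCs. HSCs were sorted as Lin-, cKit+, Sca1+, Flk2-, CD48- and CD150+ cells, and each library held cells pooled from several mice, so that p-values measure the spread between pools. By the study's methods a young pool drew on more mice than an aged pool, so that pool size moved with age. A list that lacks a region gives it the lowest value, and among such lists the spread between pools is not measured. The lists gave positions and scores but no reads, and the read depth behind a score is unknown.

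Transposase cuts where nucleosomes are displaced, most often at promoters and enhancers. An exon is also transcribed and, in its coding part, constrained by the protein it encodes, yet transcription factors can bind there, and some exons act as enhancers of their own or of a neighbouring gene. The 3' UTR is the transcribed stretch after the stop codon, where RNA-binding proteins and microRNAs act on the message, and its DNA is free of the constraint of a reading frame. In HSCs, sites of the RUNX, GATA and ETS families are typical of distal open chromatin.

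Of the 1926 regions, 958 lay in a 3' UTR, 934 in a CDS and 34 in a 5' UTR. The last exon of the transcript held 1237 of them, an internal exon 608, the first exon 25, and 56 lay in genes of a single exon. The exons were long where the region was in a 3' UTR (median 2690 bp) and short in internal coding exons (median 176 bp), where the position lay a median of 47 bp from the nearest exon edge. A merged region was 591 bp wide at the median, so most regions in internal exons also reached into introns. At 27 positions exons of more than 1 gene overlapped, and at 5.24% of positions transcripts disagreed on the part of the exon.

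Exons made up 2.28% of the bases more than 1 kb from a start and held 3.84% of the 50127 regions found there. That is 34.1 exonic regions per megabase, against 19.9 per megabase outside exons, gaps of the assembly included. The density was 37.4 per megabase in CDS, 31.1 in 3' UTR and 50.7 in 5' UTR, the last over only 0.670 Mb. These are descriptions of the 12 lists together, with no test.

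Within genes the exonic regions sat late. Their median position was 89.3% of the way from the start to the end of the gene, and 1320 of them (68.5%) lay past 75% of its length. For the 3' UTR this follows from where the UTR is, and its regions lay at a median of 96.2%. For the CDS the median was 74.0%, with 460 of 934 regions past 75% of the length and 86 in the first 25%, where the rule on distance from starts removes part of the sequence. Where coding bases lie along genes was not counted, so these shares have no background.

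**Figure D1:**
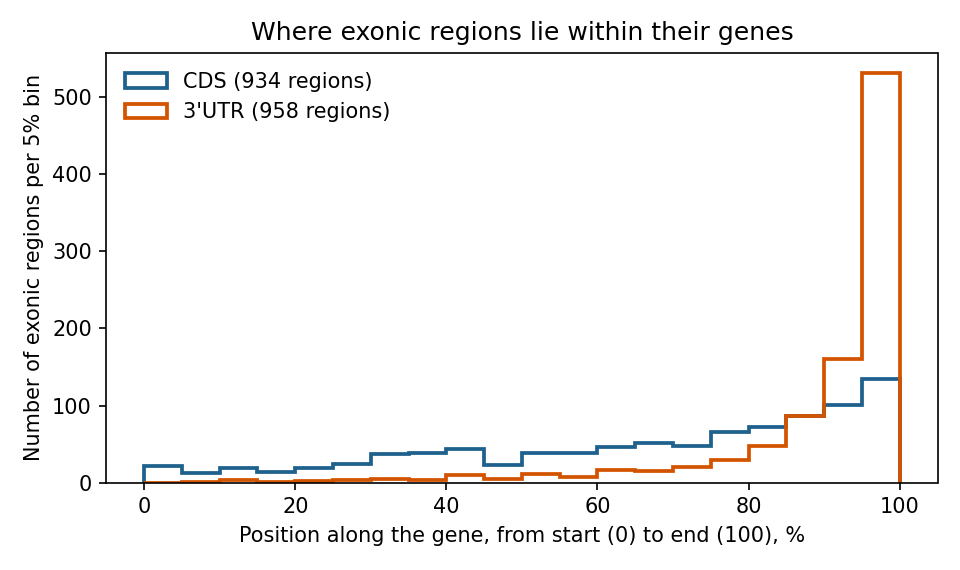
Number of exonic regions (vertical axis, per 5% bin) by position along the gene in percent of its length from start to end, as 1 line for the 934 regions in coding sequence and 1 for the 958 in 3' UTR. Coding regions spread over the gene and grow in number towards its end, with 460 past 75% of the length, while 854 of the regions in 3' UTR lie there. No background of coding bases is drawn.

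Sites that carry known motifs are shown for exonic regions described further on, to let the sequence be read beside the scores. Each line gives 30 bases of the mm10 (GRCm38) genome, 5' to 3', with the motif in capitals. The motifs searched, on both strands and within 100 bp of the position, were CAGCTG for the E-box, TGTGGTT for RUNX, AGATAAG for the GATA family, AGGAAGT for ETS, TGANTCA for AP-1, GGGCGGG for SP/KLF, GCGCATGC for NRF1, AAGATGGC for YY1, and those of IRF and CTCF by name. Each site was copied from the strand that reads the motif as spelled.
Fam131a, E-box, chr16:20702106-20702135, + strand: ggggcatggctaCAGCTGtggcagacagtg
Rp1, E-box, chr1:4352018-4352047, + strand: atggctcccttcCAGCTGccaccacagctc
Med10, E-box, chr13:69814070-69814099, + strand: tcccttgggtgaCAGCTGacatcagtgtgc
Lzts3, E-box, chr2:130635854-130635883, + strand: ccgttgccttatCAGCTGggccgcctcctc
Map3k19, RUNX, chr1:127830420-127830449, + strand: agtgaaggctgTGTGGTTagcatcctcccc
Ccdc34, AP-1, chr2:110172639-110172668, + strand: ttcagccactcTGAGTCAgcgtttcttgat
P2ry14, RUNX, chr3:59114074-59114103, + strand: tgtttcttagcTGTGGTTtgcagcctcctt
P2ry14, GATA, chr3:59114089-59114118, - strand: acatatcaggcAGATAAGgaggctgcaaac
Clec1a, ETS, chr6:129425968-129425997, - strand: cgggtgacagcAGGAAGTttgtgaagggta
Dot1l, SP/KLF, chr10:80792560-80792589, - strand: ccgtgaaggagGGGCGGGagaccttgtgtg

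The E-box in Fam131a lay 0.5 bp from the region's position, counted from the motif's centre, and the RUNX motif in Map3k19 lay 1 bp from it. In P2ry14 the RUNX and GATA motifs lie in the same stretch, on opposite strands, and the 2 printed windows overlap. A match is a string of letters in the genome and was not tested for binding.

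Among all 1926 exonic regions, an E-box stood within 100 bp of the position in 18.4%, against 15.3% of intronic, 14.99% of intergenic and 14.6% of all 70945 regions. The CTCF motif, of the factor that organises chromatin loops, was present in 13.2% of exonic, 10.5% of intronic and 13.04% of intergenic regions. The ETS motif was in 15.1% of exonic, 19.7% of intronic and 18.4% of intergenic regions. RUNX motifs stood in 8.5% of exonic regions, 13.2% of intronic and 12.5% of intergenic regions. AP-1 motifs were at 7.7% of exonic, 12.2% of intronic and 12.6% of intergenic regions. The GC-rich SP/KLF motif was at 7.0% of exonic regions, between 3.5% of intronic regions and 29.05% of those within 1 kb of a start. GATA motifs stood in 3.0% of exonic, 5.0% of intronic and 4.9% of intergenic regions. IRF stood in 2.8% of exonic, 4.3% of intronic and 4.5% of intergenic regions, and YY1 in 1.0%, 1.1% and 1.6%. NRF1 stood in 0.88% of exonic, 0.36% of intronic and 0.54% of intergenic regions, and in 2.6% of those within 1 kb of a start. Over all regions the shares of IRF, YY1 and NRF1 were 3.7%, 1.6% and 1.1%. Coding and untranslated exons differed in these shares: RUNX was at 6.3% of regions in CDS and 10.6% in 3' UTR, AP-1 at 5.1% and 10.1%, and the E-box at 21.6% and 15.4%. Base composition differed too, with a median GC content of 58.7% in CDS and 51.7% in 3' UTR, and its part in the motif shares was not tested.

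The files listed 36805 to 63125 summits per library, of which 35696 to 61465 scored 3 or more on the chromosomes used. Young lists held 35696 to 56329 and aged lists 47007 to 61465, so that list length moved with age. Each list was therefore cut to its 35696 summits of highest score before comparisons. Of 10 HSC marker genes, 5 (Kit, Hlf, Mecom, Tal1 and Erg) had a region within 1 kb of a start in all 12 cut lists, and Slamf1, the gene of the sort marker CD150, had one in none. No start of 12 myeloid markers was held by all 12 lists and 8, Elane and Mpo among them, by none. Of the lymphoid markers, the starts of Pax5, Ebf1 and Vpreb1 were in all 12 lists and those of 9 of 15 were in none. Of the erythroid and megakaryocyte markers, the starts of Epor, Pf4, Gp1ba and Gp9 were in all 12 lists and 7 of 12 in none, and of the stromal and endothelial markers Pecam1 was in all 12 and 4 of 11 in none. Summits at Y-linked genes were present in 3 young lists and 0 aged lists, and the labels give no sex.

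In the lists cut to equal length, a library placed 593 to 672 of the exonic regions. Their share of all summits was 1.89% ± 0.0219 (SD, n = 3) in young WT and 1.90% ± 0.114 in young Mlkl-/- libraries. In the aged mice the share was 1.89% ± 0.0191 for WT and 1.88% ± 0.0657 for Mlkl-/-, so that the groups overlapped. Aged libraries differed from young by -0.011 percentage points over both genotypes (two-sided exact permutation test within genotype, p = 0.795 of 400 labellings, smallest possible p 0.005). Mlkl-/- differed from WT by 0.0019 points (two-sided exact permutation test within age, p = 0.98). With all summits of 3 or more, the age difference was 0.133 points (exact permutation test, p = 0.115), in lists that were longer in the aged libraries.

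In the cut lists, 1063 of the 1926 exonic regions were in 2 libraries or fewer. Of the 1926, 629 (32.7%) were in none of the cut lists and entered through lower-scoring summits of longer lists, 280 were in 1 list, and 202 (10.5%) were in all 12. In the full lists 400 were in 1 library, 210 in 2 and 328 in all 12. For intronic regions the share in all 12 lists was 11.7% and for intergenic regions 12.3%, while it was 45.7% within 1 kb of a start. Of the exonic regions in all 12 lists, 100 were in CDS, 94 in 3' UTR and 8 in 5' UTR. The median score of exonic regions in a library ranged from 7.13 to 14.9, close to the 7.79 to 16.2 of intronic regions and under the 13.6 to 24.5 of regions near starts.

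**Figure D2:**
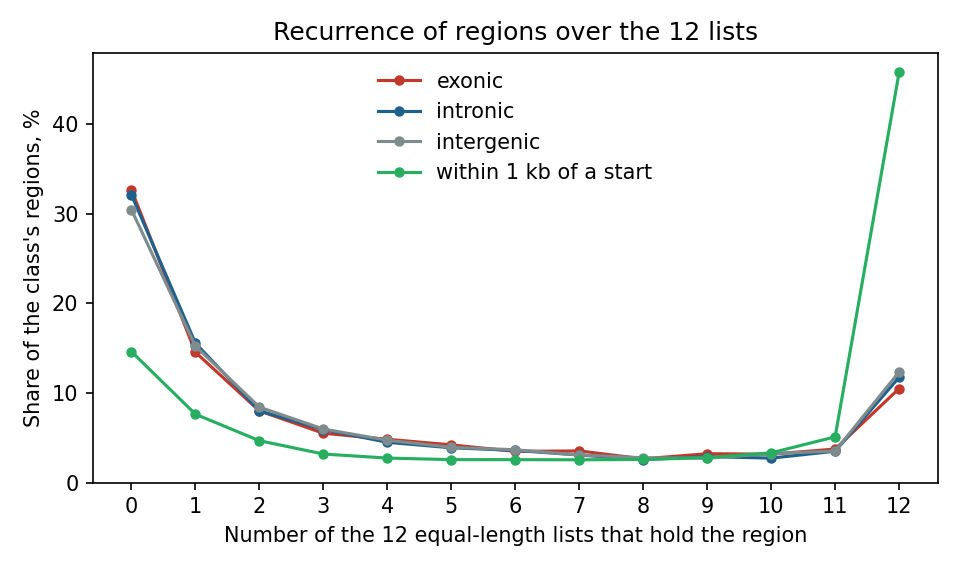
Share of each class's regions (vertical axis, %) held by 0 to 12 of the lists cut to equal length, as 1 line for each of exonic, intronic, intergenic and start-proximal regions. The exonic line runs close to the intronic and intergenic lines, with 32.7% in no list and 10.5% in all 12, and only the regions within 1 kb of a start rise to 45.7% in all 12.

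Exonic regions had a median GC content of 54.7%, above intronic (49.8%) and intergenic regions (49.3%) and below regions near starts (62.2%). CpG pairs were at 0.353 of the number expected from base content, against 0.218 in intronic regions and 0.699 near starts. Repeats masked in the assembly covered a mean of 6.92% of exonic windows and 14.2% of intergenic ones. In 47 exonic regions (2.44%), more than 50% of the 31-base words occurred elsewhere in the genome, against 5.92% of intergenic regions. A score there cannot be assigned to 1 locus by sequence alone.

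Open starts were about as frequent among the genes that held exonic regions as among all coding genes. A region lay within 1 kb of a start in all 12 cut lists for 785 of the 1804 genes (43.5%), and for 43.9% of all 21728 protein-coding genes. Of the 205 genes with an exonic region in all 12 lists, 94 (45.9%) had such a start. The start of 495 of the 1804 genes was in none of the cut lists. Their exonic regions were found in the full lists, and 629 of the 1926 exonic regions were in none of the cut lists either.

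The strongest exonic region of all was in the 3' UTR of Lars2, which encodes the mitochondrial leucyl-tRNA synthetase (chr9:123461756-123462285, exon 21 of 21). Its score was lowest at 75.2, had a median of 87.0 and was highest at 120.8 over the 12 libraries. Of its 31-base words, 60.2% occurred more than once in the genome, with up to 8 copies. The next, in a coding exon of the predicted gene Gm21738 (chr14:19415603-19419621), scored 55.1 to 78.8, and there 73.7% of the words were repeated, with up to 110 copies. The part of other copies in these 2 scores was not tested.

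After these came 3 regions with no repeated words. In the 3' UTR of Tnfrsf11b, which encodes osteoprotegerin, a decoy receptor that restrains osteoclasts (chr15:54251328-54251940), the score ran from 38.1 to 65.1 with a median of 53.4. In the 3' UTR of P2ry14, a receptor for UDP-glucose found on primitive blood cells (chr3:59113836-59114617), it ran from 34.7 to 69.8 with a median of 55.2. A region in a single-exon coding sequence of B430305J03Rik that overlaps an exon of Rap2b, a small GTPase (chr3:61363275-61364077), scored 38.1 to 64.1. None of these 3 regions passed the test for age (limma, adjusted p 0.20, 0.73 and 0.78), and the young and aged scores overlapped.

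Orai2, a channel of store-operated calcium entry, held a 3' UTR region at 32.2 to 70.3, in which 81.9% of words were repeated, with up to 2 copies. The strongest region in a 5' UTR was in Sf3b5, a subunit of the splicing complex SF3B, with scores of 21.6 to 71.4. Ankrd61 (CDS) scored 26.4 to 66.5, Usp6nl, a GTPase-activating protein of endosomes, 18.0 to 69.5 in its 3' UTR, and Rhof, a small GTPase, 28.8 to 56.5 in its 3' UTR. The lowest values of P2ry14, Orai2, Sf3b5, Ankrd61 and Usp6nl came from young Mlkl-/- replicate 3, the library with the shortest list.

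**Figure D3:**
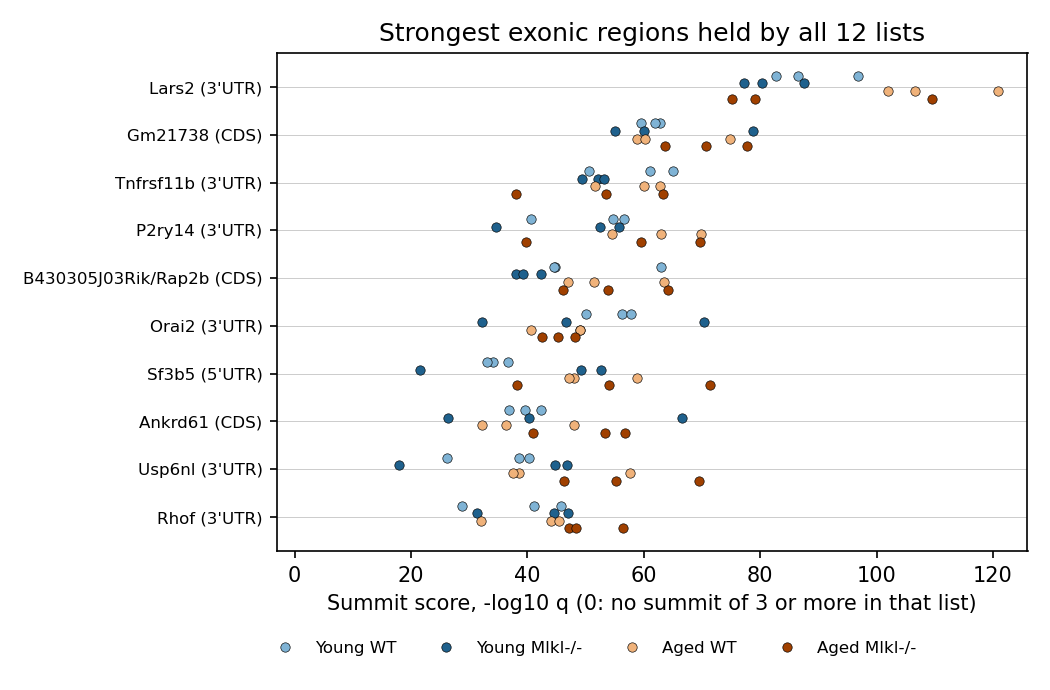
Summit score (horizontal axis, -log10 q) of the 10 exonic regions of highest mean rank among those in all 12 lists, 1 row per gene and 1 point per library, coloured by group. Lars2 lies highest, between 75.2 and 120.8, with only Gm21738 (up to 78.8) reaching into its range, and in each of the 10 rows the points of young and aged libraries overlap.

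Age was compared over both genotypes on ranks: within each cut list the regions were ranked by score and the ranks turned into normal scores, on which a region absent from a list shares the lowest value (-0.57 to -0.53). Differences below are on that scale, aged minus young, from limma over all 37851 regions held by at least 3 lists, of which 863 were exonic. The 1063 exonic regions in fewer lists were not tested. A region held by young or by aged cut lists alone passed this filter through the age where it was high. Its values in the other age all sat at the lowest value, so its SE and p partly reflect that floor. This was so for 5 of the exonic regions called higher below and 7 of those called lower. Those named are Rp1, Alg10b, Lama3, Ccdc34 and Serpinb13 among the higher. Among the lower they are Fam131a, Med10, Espn, Myl12b, Sema4d and Nckap1l. At an adjusted p below 0.01, 30 of the 863 exonic regions (3.48%) differed with age, 15 higher and 15 lower in aged HSCs. Over all regions tested, 2.70% differed, 1.70% higher and 0.996% lower. By class, the called share was 3.98% of intronic, 3.89% of intergenic and 0.887% of start-proximal regions. Higher and lower were 1.74% and 1.74% of exonic, 2.43% and 1.54% of intronic and 2.72% and 1.17% of intergenic regions. They were 0.440% and 0.447% of start-proximal regions. Exonic regions had a median change of -0.01, as did all regions tested.

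Of the 30, 15 were in CDS and 15 in 3' UTR, out of 432 and 413 tested, and the sign of the change was the same in both genotypes for all 30. The call was made on the mean of both genotypes, so opposite signs would seldom pass and the agreement is no separate support. Young and aged normal scores (6 libraries each) were fully separate in 27 of the 30 and in 44 of the 863 exonic regions, against 3.87% of all regions tested. The calls came from these same scores, so the separation of the 27 is no separate support. The higher 15 lay a median of 10.0 kb from the nearest start and the lower 15 a median of 3.79 kb. The count rested on several libraries and settings. It was 2 with list length as a covariate, 7 without the 3 libraries whose file names lack the tag "add" (young Mlkl-/- replicate 2, aged WT replicate 3 and aged Mlkl-/- replicate 1), 10 with summits at Y-linked genes as a covariate and 19 with a replicate block. Without 1 library it ranged from 16 to 29, and fell by over 1.5 times without young WT replicates 2 (17) and 3 (18), aged WT replicates 1 (18) and 3 (18) and aged Mlkl-/- replicates 1 (16) and 2 (16).

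The exonic region of largest increase was in exon 3 of 4 of Rp1, a microtubule-associated protein of photoreceptors (chr1:4351748-4352352, CDS). In the young, 5 libraries held no summit of 3 or more and Mlkl-/- replicate 2 held one of 6.0. Aged scores were 18.7, 15.1 and 28.1 (WT) and 18.8, 26.7 and 29.8 (Mlkl-/-). Every aged library was above every young one, as the rule for naming these regions requires of the ranks. The normal score rose by 1.69 ± 0.21 (SE; limma, adjusted p = 0.00015), by 1.62 in WT and 1.75 in Mlkl-/-. The call held under all 28 alternatives, list length as a covariate included (adjusted p = 0.0065). In the cut lists no young library held the region, so its SE and p partly reflect the floor. The alternatives use the same libraries and are no separate support.

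The 3' UTR of Alg10b, a glucosyltransferase that completes the lipid-linked sugar of N-glycosylation, held a region (chr15:90232347-90232876) that no young list contained. Aged scores were 19.8, 10.8 and 18.6 in WT and 35.7, 16.1 and 17.5 in Mlkl-/-. Its rise was 1.53 ± 0.22 (limma, adjusted p = 0.00044), and it was lost with list length as a covariate (adjusted p = 0.017). A coding exon of Lama3, the alpha3 chain of laminin (exon 45 of 75), was likewise in no young list and scored 12.7, 9.7 and 18.6 in aged WT and 25.1, 13.8 and 25.5 in aged Mlkl-/-, a rise of 1.42 ± 0.21 (limma, adjusted p = 0.00055; 0.022 with list length as a covariate).

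Cd164, a sialomucin of haematopoietic progenitors, had a 3' UTR region (chr10:41529923-41530530) with scores of 10.3, 9.9 and 15.6 in aged WT and 17.6, 22.9 and 16.3 in aged Mlkl-/-. Of the young libraries 2 held it, 1 WT at 6.5 and 1 Mlkl-/- at 6.0, both under every aged value. It rose by 1.18 ± 0.23 (limma, adjusted p = 0.0040), but not without aged Mlkl-/- replicate 2 (adjusted p = 0.015), young WT replicates 2 and 3, aged WT replicate 3 or aged Mlkl-/- replicate 1. In Hsd17b4, a peroxisomal enzyme of fatty acid oxidation, the coding region in exon 3 of 24 scored 11.5 to 25.9 in aged libraries and 7.9 and 4.6 in 2 young Mlkl-/- libraries, a rise of 1.12 ± 0.22 (limma, adjusted p = 0.0043; 0.018 without aged Mlkl-/- replicate 1).

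Ccdc34 (3' UTR, chr2:110172285-110172999) was in no young list and scored 8.3 to 16.5 in the aged (1.12 ± 0.21, limma, adjusted p = 0.0031; 0.0101 without aged Mlkl-/- replicate 1). Serpinb13, a serine protease inhibitor (CDS, chr1:107000363-107000969), was in no young list either and scored 7.5 to 12.7 in the aged. Iqsec3, an exchange factor for ARF GTPases (3' UTR, chr6:121374954-121375515), scored 10.3 to 29.3 in aged libraries and up to 11.6 in the 4 young libraries that held it. Its full scores overlapped between the ages, whereas its ranks in the cut lists did not. Ccdc150 (CDS) rose by 1.12 and Sobp (3' UTR) by 1.11. The calls of Ccdc150, Sobp, Iqsec3 and Serpinb13 each held in only 1 to 3 of the 12 fits without 1 library, with adjusted p of up to 0.020, 0.023, 0.037 and 0.020.

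The region of largest decrease was in the 3' UTR of Fam131a (chr16:20701805-20702935, exon 6 of 6), the E-box site shown above. Young scores were 22.3, 27.3 and 27.2 in WT and 18.3, 21.2 and 16.9 in Mlkl-/-. Aged scores were 3.6, 6.0 and 6.1 in WT and 4.2, 0 and 7.6 in Mlkl-/-, where 0 means no summit of 3 or more. The ages did not overlap, as the naming rule requires of the ranks. The normal score fell by 1.83 ± 0.19 (SE; limma, adjusted p = 2.1e-05), with changes of -1.995 in WT and -1.67 in Mlkl-/-, and the call held under all 28 alternatives. In the cut lists no aged library held the region, so its SE and p partly reflect the floor. The alternatives use the same libraries and are no separate support.

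Med10, a subunit of the Mediator complex (3' UTR, chr13:69813753-69814308), scored 15.4, 13.9 and 11.6 in young WT and 10.9, 20.5 and 6.7 in young Mlkl-/-, and only 1 aged library held it, at 4.5. Its fall was 1.38 ± 0.21 (limma, adjusted p = 0.00061). Lzts3, a protein of the synaptic density (CDS, chr2:130634897-130636189), scored 12.98 to 18.9 in the young and 4.5 to 10.3 in the aged, a fall of 1.38 ± 0.22 (limma, adjusted p = 0.00082). Espn, the actin-bundling protein espin (3' UTR, chr4:152124348-152124938), scored 8.6 to 18.9 in the young and was in no aged list (1.31 ± 0.22, limma, adjusted p = 0.0014).

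Map3k19, a protein kinase (CDS, chr1:127830180-127830716), scored 13.05 to 23.9 in the young and up to 10.8 in the 3 aged libraries that held it. Fam234b (CDS) scored 9.7 to 22.4 and then up to 11.5, and Rhbdl3, a rhomboid-family membrane protein (CDS), 8.5 to 23.4 and then up to 10.9, so that their full scores overlapped between the ages. Myl12b, a myosin regulatory light chain, fell by 1.18 ± 0.21 in a coding exon, of whose 31-base words 80.1% are repeated. The calls of Fam131a, Fam234b, Lzts3, Med10, Map3k19, Espn, Rhbdl3 and Myl12b held in all 12 fits without 1 library. With list length as a covariate, all of them but Fam131a were lost (limma, adjusted p of 0.0137 in Med10 to 0.054 in Myl12b), as was every other named age call over both genotypes except Rp1. With summits at Y-linked genes as a covariate, Fam234b, Med10, Rhbdl3 and Myl12b were lost, and in the 9 libraries with the tag Lzts3, Rhbdl3 and Myl12b were lost. Among the named regions that rose, that covariate lost Cd164, Hsd17b4, Ccdc34, Ccdc150, Sobp and Serpinb13 (limma, adjusted p of 0.012 in Cd164 to 0.054 in Hsd17b4). In the 9 libraries all that rose but Rp1 were lost. Sema4d and Nckap1l, described next, were lost in both settings.

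Sema4d, a semaphorin of immune cells (3' UTR), fell by 1.12, and Nckap1l, a WAVE-complex subunit of blood cells that shapes the actin skeleton (CDS), by 1.09 (limma, adjusted p = 0.0043 and 0.0051). Both calls were lost without young WT replicate 2 (adjusted p = 0.015 and 0.017), and held in 6 and 3 of the 12 fits without 1 library. In each, 1 aged library held a summit, at 5.3 in Sema4d and at 5.7 in Nckap1l, the latter above the lowest young score of 3.5.

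**Figure D4:**
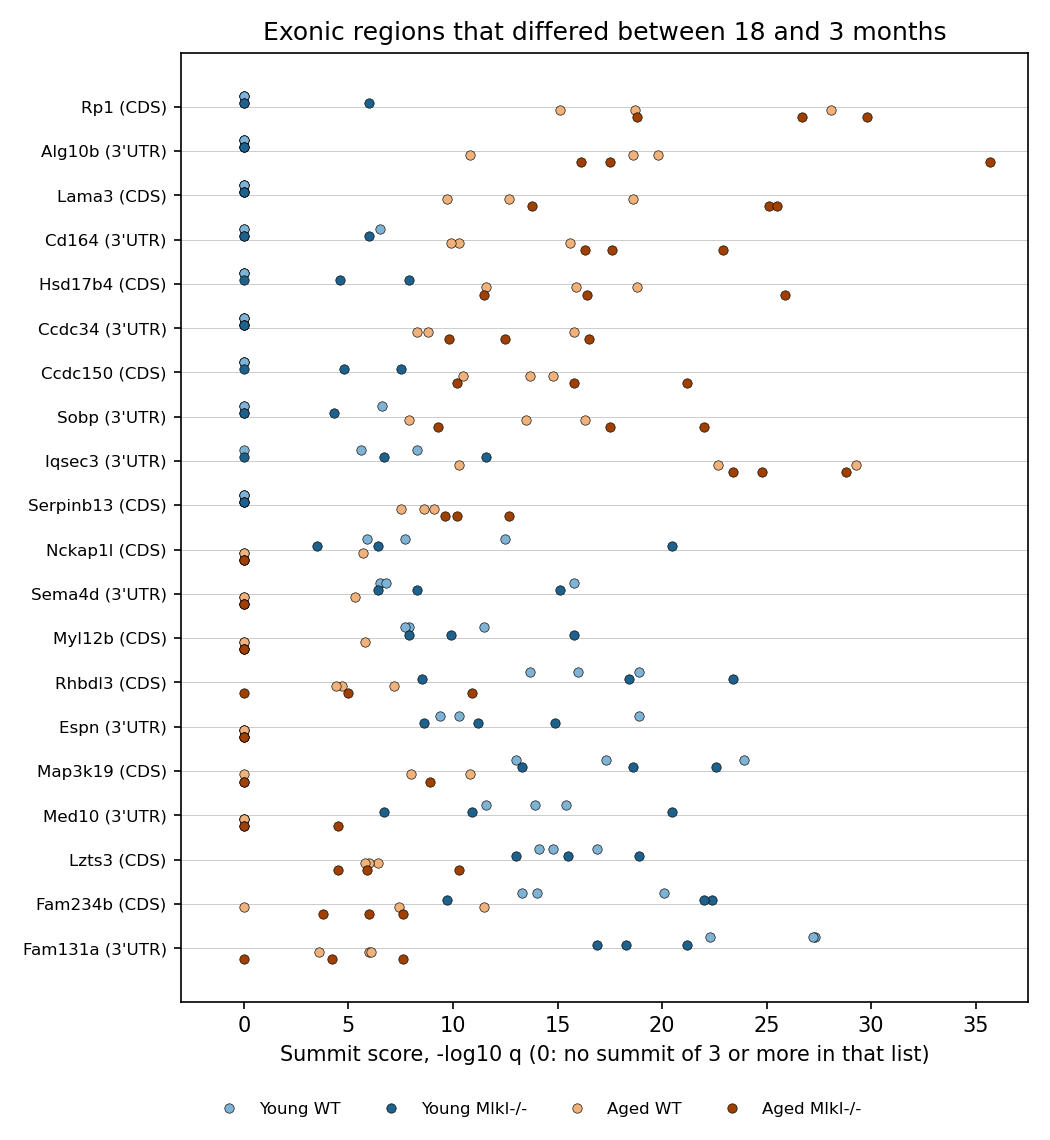
Summit score (horizontal axis, -log10 q, 0 where a list holds no summit of 3 or more) in each of the 12 libraries for the 10 exonic regions that rose most and the 10 that fell most with age, coloured by group, full lists. Fam131a lies at 16.9 to 27.3 in young and at 0 to 7.6 in aged libraries, Rp1 at 0 to 6.0 and 15.1 to 29.8, while Iqsec3, Fam234b, Rhbdl3 and Nckap1l overlap on this scale.

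In the cut lists, 6 exonic regions were in all 6 aged and no young library and 7 in all 6 young and no aged library (0.312% and 0.363% of the 1926). Over all regions the shares were 0.366% and 0.186%. In the full lists these counts became 13 and 2, against 0.841% and 0.0550% of all regions. Of the 15 regions that fell, 7 were in no aged cut list and 1 was in no aged full list.

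Within 1 genotype few exonic regions passed. In WT, 1 of the 863 did, against 0.193% of all regions tested, and it was Fam131a, lower (limma, adjusted p = 0.0015), where 0.0423% of all regions were lower. In Mlkl-/-, 2 did, against 0.151%. They were Rp1, higher (limma, adjusted p = 0.0079), where 0.140% of all regions were higher, and Fam131a, lower (limma, adjusted p = 0.0059), where 0.0106% were lower. In the cut lists Rp1 was in no young library and Fam131a in no aged library, so these p-values partly reflect the floor. The WT call of Fam131a was lost without young WT replicate 3 (adjusted p = 0.014), young WT replicate 2 or aged WT replicate 1, and the Mlkl-/- calls of Rp1 and Fam131a were lost without aged Mlkl-/- replicates 2 (0.068) and 1 (0.032), respectively, and without most other libraries. The difference of the age change between genotypes passed in 0 of the 863 exonic regions and 0% of all regions (limma), with 41 exonic regions (4.75%) below an unadjusted p of 0.05.

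**Figure D5:**
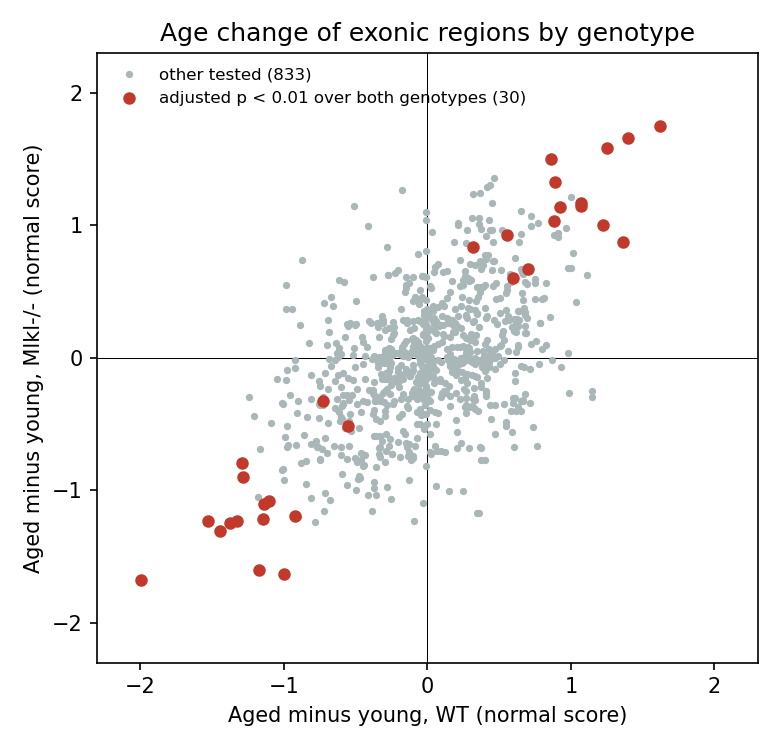
Age change (aged minus young, normal score) of the 863 tested exonic regions in WT (horizontal axis) and Mlkl-/- (vertical axis), with the 30 regions called over both genotypes in red. All 30 lie at the lower left or upper right, which a call on the mean of both genotypes favours. Fam131a lies at -1.995 and -1.67 and Rp1 at 1.62 and 1.75.

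No exonic region passed for Mlkl-/- against WT. The count was 0 of 863 in young mice, in aged mice and with the ages combined (limma, adjusted p below 0.01), and 0% of all regions tested passed. Below an unadjusted p of 0.05 stood 41, 41 and 55 exonic regions, or 4.75%, 4.75% and 6.37%, beside 5.37%, 5.11% and 6.20% of all regions. The median genotype difference over both ages was -0.01 in exonic regions and 0.00 in all regions.

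The values of lowest unadjusted p did not pass. At 3 months, a coding region of Nkpd1 scored 15.6, 7.4 and 12.5 in WT and 0, 7.7 and 0 in Mlkl-/- (-1.32 ± 0.34, limma, adjusted p = 0.51). At 18 months, a coding region of Pgls, an enzyme of the pentose phosphate pathway, scored 4.2, 0 and 0 in WT and 13.3, 9.2 and 12.9 in Mlkl-/- (1.10 ± 0.26, limma, adjusted p = 0.61). Over both ages, Ypel3 in its 3' UTR differed by 0.76 ± 0.22 (limma, adjusted p = 0.77), with 9.3, 9.0 and 10.3 in aged Mlkl-/- and 0, 4.7 and 4.9 in aged WT. Its young scores were 4.3, 4.9 and 0 in WT and 0, 10.1 and 3.9 in Mlkl-/-. These scores are of the full lists. In the cut lists only Mlkl-/- libraries held Ypel3 and Pgls, so both passed the filter through that genotype. Their WT values all sat at the lowest value, so SE and p partly reflect that floor. Nkpd1 sat there in young Mlkl-/-.

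Over all coding genes, 1804 of 21728 carried an exonic region. Of 41 HSC transcription factor genes, 8 did, in 8 regions of which 4 were tested and none was in all 12 lists or changed with age. Tal1, a master regulator of blood formation, had a coding region (chr4:115062435-115064297) in 11 cut lists, at 5.7 to 15.7. Foxo1, a factor of HSC maintenance, had one in its 3' UTR in 9 lists, at up to 20.9. Meis1 (3' UTR) was in 3 cut lists, all young, at 8.1, 4.8 and 9.5 (limma, adjusted p = 0.23).

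Of 35 HSC receptors and signalling genes, 6 carried 7 regions, 2 of them tested. Flt3, the receptor by which HSCs are told from progenitors in the sort, had a coding region at 5.0 to 14.7 in all 12 libraries, and Itgb3, an integrin of HSCs and platelets, one in its 3' UTR at 3.5 to 11.99. Of 31 genes known to change with HSC age, 7 carried 9 regions, 5 tested and 0 called. The 5 changes were 0.81 in Jun, 0.54 in Jam2, 0.53 in Clec1a, 0.42 in Enpp5 and -0.52 in Itgb3, with a median of 0.53. This list was chosen with earlier results of these data known, and Jun passed the filter on lists only through aged libraries. Medians of other small sets were 0.49 in 4 tested olfactory receptor regions and -0.47 in the 2 tested of HSC receptors. Of the ageing genes, Clec1a, a lectin, had a 3' UTR region (chr6:129425733-129426264) that scored 17.4 to 42.1 in young and 20.1 to 56.3 in aged libraries (0.53 ± 0.19, limma, adjusted p = 0.10). The 3' UTR of Jun, the AP-1 subunit, was in no young library at 3 or more and in all 6 aged at 6.5 to 16.5 (0.81 ± 0.23, limma, adjusted p = 0.040), which did not pass.

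Chromatin regulators held 6 regions in 6 of 45 genes. Dot1l, the H3K79 methyltransferase, had a coding region in all 12 lists (chr10:80792105-80793144) at 7.7 to 17.6, and Kdm6b, an H3K27 demethylase, one in its 5' UTR in 9 cut lists. Genes of necroptosis and cell death held 4 regions in 4 of 26 genes. Bcl2l11, which encodes the pro-apoptotic protein BIM, had one in its 3' UTR in 3 aged libraries, at 7.1, 5.8 and 4.0, and in no young library, and it was in too few lists to be tested. None of 18 cell cycle and quiescence genes held any.

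Exonic regions also lay in marker genes of other cells. The coding region of Klf1, the erythroid master regulator (chr8:84902775-84903863), was in all 12 lists at 12.8 to 33.0, and the 3' UTR of Kdr, the VEGF receptor of endothelium (chr5:75933415-75934014), at 7.6 to 28.6. The start of Klf1 itself was in none of the cut lists. Of 12 erythroid and megakaryocyte markers 1 held a region, of 11 stromal and endothelial markers 3, of 12 myeloid markers 1 and of 15 lymphoid markers 0. Summed scores at the starts of the erythroid and megakaryocyte markers (7 regions) were 70.2 to 141 in young and 98.5 to 169 in aged libraries, and those of HSC markers (16 regions) 96.96 to 185 and 136 to 207. For myeloid markers (6 regions) the sums were 11.7 to 31.9 and 15.9 to 41.6, and for lymphoid markers (10 regions) 44.4 to 104 and 60.7 to 108. Stromal and endothelial markers (14 regions) gave 48.1 to 80.2 and 66.5 to 115. With unequal numbers of regions, the sums cannot be compared between cell types. The median score of regions near starts itself ran from 13.6 to 24.5 over the libraries, and read depth is unknown. The part of other cells in these regions was not tested.

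By gene family, 47 exonic regions lay in 43 solute carrier genes, of which Slc34a1, a sodium phosphate transporter, had a coding region that fell with age (-0.53 ± 0.12, limma, adjusted p = 0.0098; 18.2 to 36.5 in young and 17.0 to 25.4 in aged libraries). The change was -0.73 in WT and -0.33 in Mlkl-/- and passed in neither alone (limma, adjusted p = 0.033 and 0.37). With list length as a covariate this call was lost. Genes named as C2H2 zinc fingers held 36 regions in 32 of 487 genes, 7 in all 12 lists and 0 called. The strongest were in Zfp652 (3' UTR, 16.3 to 39.6) and Zfp771 (CDS, 11.7 to 34.6). Olfactory receptors, which HSCs are not known to use, held 8 regions in 8 of 1134 genes, 4 tested. Histone genes held 4 regions, 2 of them in Hist1h1d, 1 in its coding sequence with 69.6% repeated words.

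Of 1804 genes, 1673 held 1, 119 held 2 and 12 held 3 or more. Itsn1, a scaffold of endocytosis, held 5 in 5 exons, 2 of them in all 12 lists, beside 9 intronic regions. Its coding regions in exons 5 and 28 of 29 scored 5.5 to 30.4 and 13.6 to 29.9, another in exon 13 was in only 3 full lists, and none of the 4 tested passed for age. Sptbn4, a spectrin of the membrane skeleton, held 4 coding regions in 36 exons, of which exon 33 rose with age (0.58 ± 0.11, limma, adjusted p = 0.0039) from 10.8 to 19.3 in young to 24.3 to 54.7 in aged libraries. The change in exon 33 was 0.32 in WT and 0.83 in Mlkl-/- and passed in neither alone (limma, adjusted p = 0.36 and 0.017). With list length as a covariate this call was lost. The Sptbn4 region in exon 14, also in all 12 lists, had a change of -0.03 (limma, adjusted p = 0.95). The difference between these exons was not tested. The 4 regions of Unc13a, a protein of vesicle priming, ranged from 0 to 12 cut lists.

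At the limits of the rule, the exonic region nearest to a start was in A230072I06Rik, 1002 bp away, with a top score of 6.39 in 3 lists. The nearest one left out lay in an exon of Lemd3, 1000 bp from a start, with a top score of 15.2. The lowest top score among the regions kept was 3.03, in Speg in 1 list, and the highest among exonic places left out for score was 2.99, in Atf6b in 2 lists.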

How the data were processed

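ATAC-seq was done by the study on sorted HSCs in 12 libraries. The authors aligned reads to mm10 with Bowtie2 2.5.3 and called peaks with MACS2 2.2.7.1, per the labels and the methods, 1 list per library and not pooled. The deposited values are MACS2 summit scores, -log10 of the q-value, against each library's own background, and read counts were not analysed here, so read depth is unknown. The lists go down to a score of 2.00, and the study's stated q cutoff is 0.001, which is a score of 3.

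From these lists regions were merged, placed on the GENCODE M21 annotation of GRCm38 and ranked within lists cut to 35696 summits (ties at random, seed 1). Contrasts were fitted on normal scores with limma 3.58.1 in R 4.3.3 over all regions held by at least 3 lists, with Benjamini-Hochberg adjustment over all regions and a threshold of 0.01. All 4 groups shared 1 fit. Shares were tested by exact permutation. Sequences are from the GRCm38.p6 genome. The fit was tested on simulated data. The study's own count model could not be run on scores. Alternatives changed the list length, score minimum, window, scale, filter, threshold, covariates, annotation and libraries.

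Regions named in the text are the 10 higher and 10 lower of largest change among age calls whose groups do not overlap, the 10 strongest in all 12 lists, up to 4 per gene list and 2 per family, those in genes with 3 or more regions, and those of lowest p where none passed. The regions, gene lists and tests were chosen with earlier results of these data known. Slc34a1 and Sptbn4 were named by the rules on families and on genes with several regions. One region of the gene lists is not reported here.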

Additional observations from a re-analysis of the deposited data

Results flagged for a closer look

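Exonic places with scores between 2 and 3 lay outside the comparisons. There were 73 such places that no summit of 3 or more touched, with 80 summits in all, 1 to 12 per list, 31 in young and 49 in aged libraries, and 69 of the places were seen in 1 library. They were listed because the files hold signal under the score used here, and no value was tested. Groups of 3 libraries were not searched for outlying samples.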

How the results depend on the processing

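Counts of exonic regions called for age over both genotypes were 30 as reported and 58 with lists of unequal length, 72 at an adjusted p below 0.05, 19 with a replicate block, 7 in the 9 libraries with a file-name tag, 2 with list length as a covariate and, added after seeing the data, 10 with summits at Y-linked genes as a covariate; without 1 library they ran from 16 to 29. In WT (1 as reported) the count was 6 with unequal lists, 14 at 0.05, 2 with regions in at least 6 lists, any exon record or (added after seeing the data) the basic annotation, and 0 with percentiles, in a separate fit, in the 9 libraries and with list length as a covariate; without 1 library it ran from 0 to 2. In Mlkl-/- (2 as reported) it was 9 with unequal lists, 15 at 0.05, 5 with regions in at least 6 lists, 1 with windows of 100 bp, and 0 with a score of at least 5, percentiles, a separate fit, the replicate block, the 9 libraries, list length or Y-linked genes as a covariate; without 1 library it ran from 0 to 2. Where fewer samples or a wider threshold do not account for a change, the cause was not tested. Genotype and interaction counts were 0 throughout. A covariate for any summit on chromosome Y could not be fitted, since every list had some.

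The age difference in the exonic share of summits (-0.011 points) turned to 0.133 with unequal lists, 0.011 in the 9 libraries and 0.032 with any exon record, and without 1 library ran from -0.030 to 0.022, above 0 without young Mlkl-/- replicate 2 or aged Mlkl-/- replicate 3. The genotype difference (0.0019 points) turned to -0.045 in the 9 libraries, -0.014 over 2 kb from a start and -0.010 with the basic annotation, and without 1 library ran from -0.031 to 0.021, below 0 without young WT replicate 2, young Mlkl-/- replicate 2, aged WT replicate 1 or aged Mlkl-/- replicates 1 and 2. No p of either passed. The replicate block gave -0.011 for age (exact permutation, p = 0.75). The libraries share only a number: deviations of same-numbered libraries correlated at -0.30 to 0.13 over 18 pairs, and 4 of the 12 libraries correlated best with their own number. Read depth is unknown, and what it limits was not tested. Aged lists were longer than young lists on the whole, and a region absent from a cut list may be present in the full one.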
